A study of Homo sapiens with 36 samples.

Results

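The transcriptional response to oxaliplatin (OXPT) of *FBXW7*-deficient colorectal carcinoma cells silenced for HDAC4 was measured by comparing 3 OXPT-treated with 3 untreated RNA-seq libraries. These 6 libraries, out of 36 in the series, were taken by their titles, although earlier results of these data were known when the comparison was chosen. All 6 came from HCT-116 cells, a human colorectal carcinoma line, edited to *FBXW7*-/- (KO) by a supplier, and all received an endoribonuclease-prepared siRNA against *HDAC4* (esiHDAC4) for 48 h. The treated cells were exposed to 50 µM OXPT for the last 24 h, whereas the untreated cells received water, its solvent. This order is that of the study's main text, while a figure legend there has the 24 h of OXPT follow the 48 h of silencing. For comparison, KO cells with a control esiRNA (esiCT), KO cells with esiCT and the degrader #11, which targets the class IIa HDACs, and WT cells were used, each as 3 untreated and 3 OXPT-treated libraries. The dose of #11 is given as 1 µM or 10 µM in different label entries, and the esiRNA of the WT libraries is not settled by the labels. The number of clones behind the KO line is not given, silencing was transient and partial, and nothing in the labels says that replicates were separate cultures, so p-values measure the spread between these libraries. In bulk RNA, fewer cells in a state and less RNA per cell cannot be told apart.

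OXPT binds platinum to the DNA bases, and the adducts block replication and transcription until they are repaired or bypassed. The damage-sensing kinases stabilise p53, which then switches on genes for arrest, repair and death. One of its targets, the CDK inhibitor p21, keeps the DREAM and RB complexes on promoters of the cell cycle and thereby lowers the genes of mitosis. FBXW7 marks cyclin E, MYC, JUN and other proteins for degradation, and HDAC4 is a class IIa histone deacetylase that acts mainly as a corepressor.

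The 6 libraries held 12557189 to 17774435 counts on genes. Unmapped reads made up 8.02% to 13.4% per library, and the mitochondrial genome took 8.07%, 7.16% and 7.72% of counts in the untreated libraries against 11.2%, 9.92% and 6.37% with OXPT. All 8 markers of colorectal epithelium were detected, with summed levels of 5673 to 7383 CPM (TMM-normalized counts scaled to a library of equal size) untreated and 8847 to 21525 CPM with OXPT. Immune markers summed to less than 1 CPM in each of the 6 libraries, with *CD3E* at 0, endothelial markers to at most 2.00 CPM, and fibroblast markers to 28.7–43.6 CPM untreated and 51.5–66.8 CPM with OXPT, with *LUM* at 0. The fibroblast sum was mainly *COL1A1*, the only one of the 6 markers that reached 64 counts.

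The silenced gene itself, *HDAC4* (ENSG00000068024.18, GRCh38 chr2:239048168-239401654, minus strand), stood at 8.94, 8.80 and 14.9 CPM in the untreated esiHDAC4 libraries and at 18.4, 14.02 and 24.9 CPM in the untreated esiCT libraries. The mean was 10.9 ± 3.48 CPM with esiHDAC4 and 19.1 ± 5.45 CPM with esiCT (SD, n = 3), so silencing was partial, and the highest silenced library overlapped the lowest control. With OXPT, the silenced libraries held 4.13, 3.33 and 4.19 CPM, all below the 6.28, 5.71 and 7.50 CPM of esiCT with OXPT. *HDAC4* thus fell with OXPT in silenced cells as well, with a log2 fold change of −1.48 (SE 0.25, adjusted p = 0.00051). Here and throughout, adjusted p-values are from edgeR's quasi-likelihood test with Benjamini-Hochberg adjustment over all genes tested, and SE is the standard error of the log2 fold change. Of the other class IIa enzymes, *HDAC5* (0.24) and *HDAC7* (0.19) did not pass the test, and *HDAC9* was too low to be tested, with 67, 54 and 33 counts untreated and 14, 6 and 4 with OXPT. *FBXW7* was still counted, at 24.2, 25.8 and 20.7 CPM untreated and 55.1, 51.1 and 28.5 CPM with OXPT, with a log2 fold change of 0.93 (SE 0.31, adjusted p = 0.052), and a gene-level count does not check the edit.

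OXPT changed 1480 of the 12356 genes tested, or 12%, with 796 higher (6.44%) and 684 lower (5.54%). A gene counted as changed when its adjusted p was under 0.05 and it moved by over 1.5-fold. In 988 genes the change exceeded 2-fold and in 229 it exceeded 4-fold, of which 113 were higher and 116 lower. The median log2 fold change over all genes was 0.02. In 787 of the 796 higher and 675 of the 684 lower genes the 3 treated libraries lay wholly beyond the 3 untreated ones, while over all genes tested 18.8% were so separated upwards and 16.6% downwards. The change was of like size in the 3 pairs of libraries with the same replicate number, where the higher genes had median log2 fold changes of 0.99, 1.24 and 1.27 and the lower genes −1.20, −1.32 and −1.28. The genes were called on these same 6 libraries. The separation of their groups and the likeness of their pairs therefore partly follow from the calling. Among the tested lncRNA genes, 71 of 606 were higher and 20 lower, against 704 higher and 650 lower of 11263 protein-coding genes.

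The number of calls depended on single libraries. With OXPT replicate 2 left out 807 genes passed, with OXPT replicate 3 957, with untreated replicate 1 834, with untreated replicate 2 894 and with untreated replicate 3 943, whereas without OXPT replicate 1 the count was 1615. Called in every one of these 6 fits were 619 genes (317 higher and 302 lower). The main test has no term for the replicate number, so its calls do not use the pairing. Blocking on the replicate number within the 6 libraries called 2243 genes (1058 higher and 1185 lower). Of the 148 called genes on the lists described below, 68 kept the call in all 6 of these fits and 7 in none. Over all genes tested 6.44% were called higher and 5.54% lower, and counts of called list members are to be read beside these shares. Counts of members whose groups were separate are to be read beside 18.8% upwards and 16.6% downwards. Values in brackets after a gene are its log2 fold changes with OXPT. Where fewer than 6 fits kept the call of a gene, their number follows its value, as in "4 of 6".

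**Figure D1:**
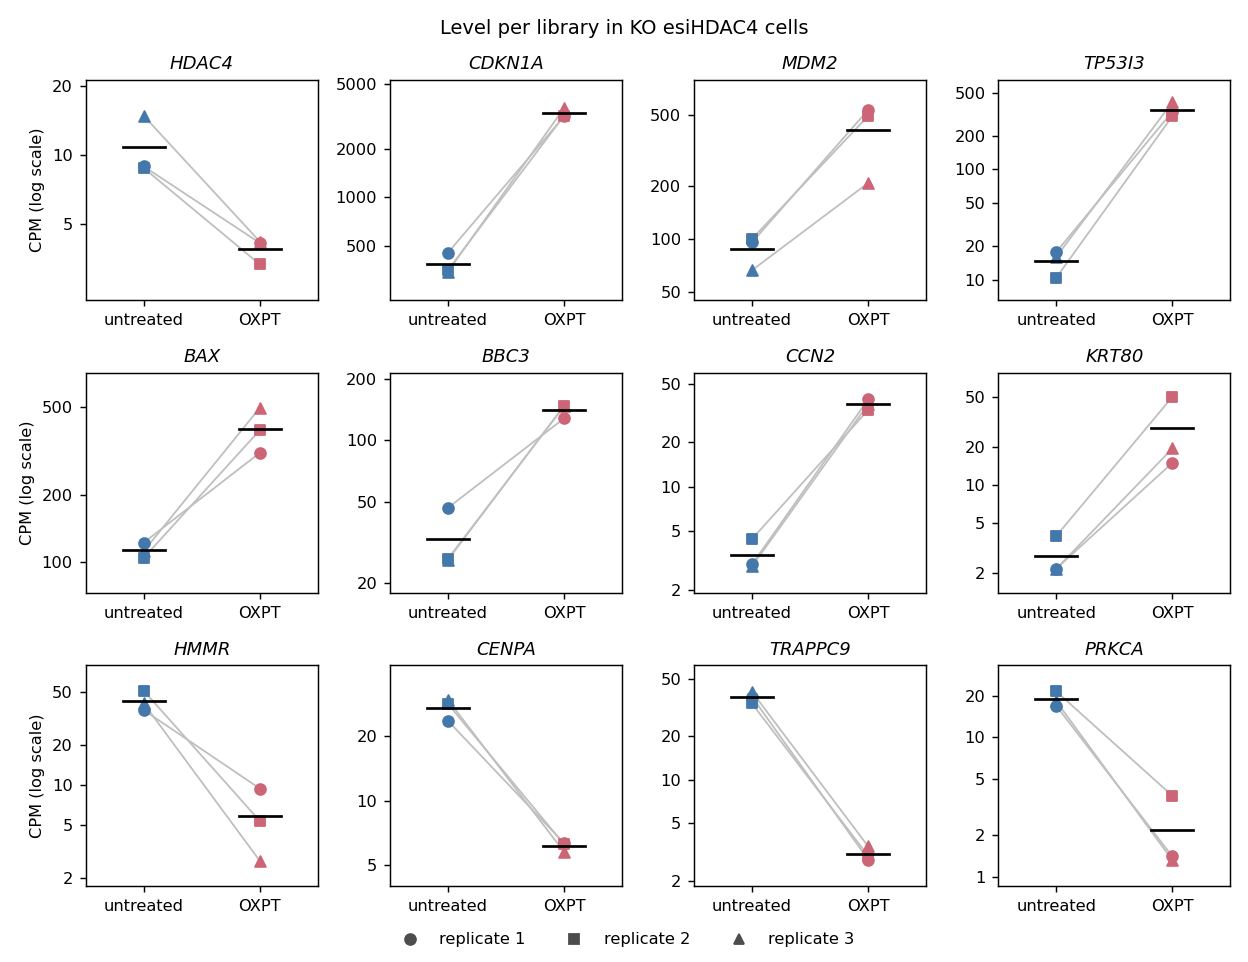
TMM-normalized CPM (log axis) of 12 genes in the 3 untreated and 3 OXPT-treated esiHDAC4 libraries, where points are libraries, grey lines join the same replicate number and black bars are means. *TP53I3* separates most widely upwards (17.7, 10.4 and 16 against 335, 305 and 408 CPM) and *TRAPPC9* downwards (37.5, 33.7 and 40.6 against 2.80, 2.97 and 3.45 CPM).

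Among protein-coding genes with a mean of at least 20 counts in both groups, the largest increases were in *TP53I3*, *CPA4*, *ELAPOR1* and *CCN2*. *TP53I3*, an oxidoreductase gene directly switched on by p53 (ENSG00000115129.14, chr2:24077433-24085861, minus strand), went from 17.7, 10.4 and 16 CPM to 335, 305 and 408 CPM, with a log2 fold change of 4.57 (SE 0.54, adjusted p = 1.4e-05). *TP53I3* overlaps *FAM228B*, and without strand-specific counts reads in the shared stretch cannot be assigned to either gene. *CPA4*, a secreted carboxypeptidase, rose from 4.01, 12.1 and 8.15 CPM to 102, 184 and 118 CPM, with a log2 fold change of 4.06 (SE 0.62, adjusted p = 0.00019). *ELAPOR1*, which encodes a membrane protein of the endosomes and lysosomes, rose from 1.28, 1.18 and 1.48 CPM to 22.0, 16.3 and 14.1 CPM, with a log2 fold change of 3.73 (SE 0.36, adjusted p = 3e-06). In all 3 genes the lowest treated library was several times higher than the highest untreated one. Groups without overlap were a condition for this ranking and for that of the largest decreases. The 12 largest increases under the same count minimum also included the secreted and surface proteins *NECTIN4* (3.26), *PTAFR* (3.15) and *GDF15* (3.09, 5 of 6). *KRT80*, a filament keratin, was at 2.16, 3.92 and 2.15 CPM untreated and 15.01, 50.4 and 19.6 CPM with OXPT, and its log2 fold change of 3.36 lost its call without OXPT replicate 2, untreated replicate 1 or untreated replicate 3. OXPT replicate 2 stood above the other two treated libraries in *KRT80* and also in *KRTAP2-3* (45.0, 177 and 69.5 CPM with OXPT, 3.17, kept in 2 of 6 fits).

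Of the gene lists examined, those of p53 targets held the largest shares of genes that rose. Of 58 targets listed, 52 were tested, and 33 were higher and 1 lower, against 6.44% higher among all genes. The median log2 fold change of the 52 was 1.58, with 1.42, 1.52 and 1.63 in the 3 pairs, beside 0.02 over all genes. In 40 of the 52 every treated library lay above every untreated one. The promoters of 4 targets that rose are given as RefSeq has them (GRCh38.p14, the 150 bases before the start), because each holds a p53 half-site within that stretch, printed in capitals, and they are *FDXR* (chr17:74872995-74873144, minus strand), *RPS27L* (chr15:63157478-63157627, minus strand), *PLK2* (chr5:58460087-58460236, minus strand) and *AEN* (chr15:88621190-88621339, plus strand).
FDXR: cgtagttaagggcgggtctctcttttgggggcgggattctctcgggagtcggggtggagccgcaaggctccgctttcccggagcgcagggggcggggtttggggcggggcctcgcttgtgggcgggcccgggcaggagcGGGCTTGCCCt
RPS27L: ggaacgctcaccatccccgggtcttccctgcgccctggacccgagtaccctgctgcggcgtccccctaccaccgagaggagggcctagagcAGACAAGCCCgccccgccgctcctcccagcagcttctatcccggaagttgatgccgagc
PLK2: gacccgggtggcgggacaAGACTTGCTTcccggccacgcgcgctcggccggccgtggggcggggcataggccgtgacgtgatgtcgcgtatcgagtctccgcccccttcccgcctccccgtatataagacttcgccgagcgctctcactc
AEN: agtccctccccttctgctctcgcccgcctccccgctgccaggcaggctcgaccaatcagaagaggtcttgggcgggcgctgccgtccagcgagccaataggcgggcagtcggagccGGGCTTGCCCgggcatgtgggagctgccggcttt
The half-site was searched on both strands from 250 bases before to 50 after each start and was present in 4 of 42 target promoters (9.52%), in 4 of the 27 whose gene rose (14.8%) and in 6.53% of all 27195 promoters. A match is a description of letters in a window, and p53 elements outside the window were not looked for.

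Among the p53 targets for arrest and feedback, 14 of 19 rose and 0 fell (median 1.98). *CDKN1A*, the gene of p21 (ENSG00000124762.14, chr6:36676460-36687337, plus strand), rose from 454, 355 and 347 CPM to 3155, 3183 and 3546 CPM, with a log2 fold change of 3.10 (SE 0.38, adjusted p = 2.2e-05). The groups were far apart, and *DINOL*, a short transcript at the *CDKN1A* promoter, overlaps the gene. *MDM2*, the ubiquitin ligase that returns p53 to low levels, rose from 95.6, 100.0 and 66.5 CPM to 538, 497 and 207 CPM, with a log2 fold change of 2.25 (SE 0.50, adjusted p = 0.005), and replicate 3 was the lowest of both groups. *PHLDA3*, an inhibitor of AKT, rose from 34.1, 28.9 and 28.7 CPM to 145, 229 and 246 CPM, with a log2 fold change of 2.76 (SE 0.31, adjusted p = 7.6e-06). The others that rose included *SFN* (2.47), the 14-3-3 protein that retains CDK1 in the cytoplasm, *BTG2* (2.38), *TP53INP1* (2.10), the sestrin *SESN1* (1.98), *PPM1D* (1.89), the phosphatase that dampens the damage signal, and *ZMAT3* (1.56). *GADD45A* (1.505, adjusted p = 0.054) and *SESN2* (1.65) did not pass, and *CCNG1* stood at 0.24.

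The repair targets of p53 were 4 higher and 1 lower of 8 (median 1.23), and all 5 calls held in each of the 6 fits. With replicate number 1, 2 or 3 left out of every group, 1, 3 and 7 were higher and 0, 0 and 1 lower. *DDB2*, which recognises bulky adducts in nucleotide excision repair, rose from 61.4, 54.4 and 52.3 CPM to 146, 161 and 222 CPM, with a log2 fold change of 1.65 (SE 0.27, adjusted p = 0.00042). *POLH*, the polymerase that copies past platinum crosslinks, rose from 28.4, 31.0 and 22.3 CPM to 93.1, 99.2 and 75.7 CPM, with a log2 fold change of 1.71 (SE 0.19, adjusted p = 7.6e-06). In both genes the groups were separate, although the treated replicates differed in order. *PCNA* (1.04) and the nuclease *AEN* (1.41) also rose, *XPC* stood at 0.90 and *RRM2B* at 1.04 without passing, and *FANCC*, of the Fanconi anaemia core complex, fell (−0.86). With the replicate block 6 of the 8 were higher.

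Of 11 metabolic and redox targets of p53, 7 rose (median 1.18). *FDXR*, the mitochondrial ferredoxin reductase, rose from 166, 110.5 and 122 CPM to 578, 655 and 778 CPM, with a log2 fold change of 2.34 (SE 0.24, adjusted p = 4.9e-06). Beside *TP53I3*, increases were seen in *SUSD6* (2.10), *TRIAP1* (1.79), *PANK1* (1.35, 2 of 6), which starts coenzyme A synthesis, *PRKAB1* (1.18) and *TIGAR* (1.04, 1 of 6 and lost with reverse-strand counts).

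Among the p53 targets for apoptosis, 8 of 15 rose and 0 fell (median 1.24). The number higher was 2, 3 and 9 with replicate number 1, 2 or 3 left out of every group. *BBC3*, the BH3-only protein PUMA, rose from 46.6, 26.2 and 25.9 CPM to 128, 147 and 148 CPM, with a log2 fold change of 2.10 (SE 0.41, adjusted p = 0.002). *BAX*, which opens the outer mitochondrial membrane, rose from 122, 104 and 111 CPM to 309.7, 392 and 494 CPM, with a log2 fold change of 1.83 (SE 0.34, adjusted p = 0.0011). Treated libraries of both genes exceeded every untreated one. The death receptor *FAS* rose from 10.8, 12.5 and 9.26 CPM to 92.7, 63.3 and 27.8 CPM, with a log2 fold change of 2.49 (SE 0.39, adjusted p = 0.00024), and its OXPT replicate 3 was the lowest of the treated libraries, as in *MDM2*. Further death receptors that rose were *TNFRSF10A* (1.59), *TNFRSF10B* (1.24, 0 of 6) and the decoy *TNFRSF10C* (2.98), together with *PIDD1* (1.52). *EDA2R* (2.40, 5 of 6) was called as well. It had 11, 4 and 7 counts untreated and 43, 33 and 29 with OXPT. This was too low for *EDA2R* to be tested with the replicate block on the 6 libraries. With reverse-strand counts it was not called, but at this low level it may not have been tested there. *PMAIP1*, the BH3-only protein NOXA, stood at 53.3, 56.6 and 55.4 CPM untreated and 131, 89.4 and 88.8 CPM with OXPT, and the difference did not pass (0.90, adjusted p = 0.15).

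In the BCL2 family as a whole, 3 of 15 members rose and 1 fell (median 0.51), and with the replicate block 6 rose. Besides *BAX* and *BBC3*, the effector *BAK1* rose from 18.8, 20.2 and 19.7 CPM to 33.8, 43.7 and 56.4 CPM (1.19, 3 of 6). *BCL2*, the founding inhibitor of apoptosis, fell from 6.58, 6.22 and 5.41 CPM to 2.73, 3.27 and 3.86 CPM, with a log2 fold change of −0.89 (SE 0.28, adjusted p = 0.043), and the call was kept in 0 of 6 fits and was lost with reverse-strand counts. *BCL2L1* (0.90), *MCL1* (0.01) and *BIK* (1.18) did not pass.

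**Figure D2:**
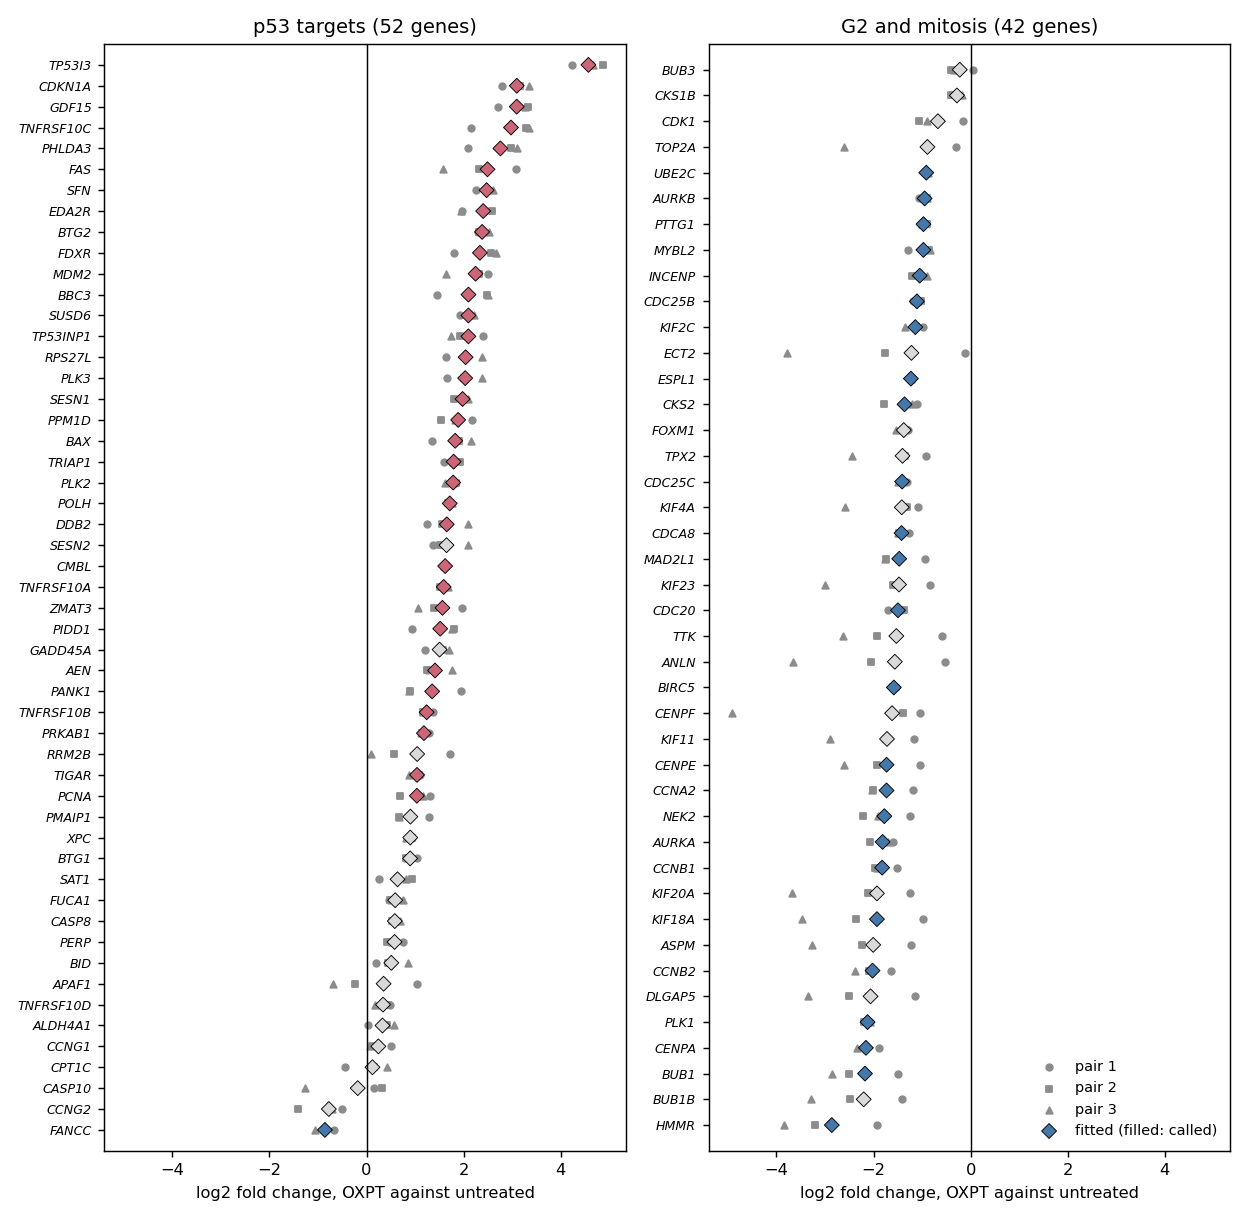
Log2 fold change (OXPT against untreated) of 52 p53 targets and 42 genes of G2 and mitosis, with the 3 pairs of equal replicate number as grey points and the fitted value as a diamond, coloured where called. Of the p53 targets 33 are called higher and 1 lower, and of the G2 and mitosis genes 25 are called lower, with fitted values below 0 in all 42.

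The list of G2 and mitosis genes held the largest share of genes that fell. Of 42 tested, 25 fell and 0 rose, against 5.54% lower among all genes, and the median was −1.49. The fitted value was negative in all 42, and in 39 each treated library lay below each untreated one. The pairs differed in depth of the fall, with medians of −1.16, −1.67 and −1.98. Leaving out 1 of the 6 libraries gave 17 to 25 calls, the lowest without untreated replicate 2, the replicate block 36 and DESeq2 31. With replicate number 1, 2 or 3 left out of every group, the calls were 6, 7 and 36.

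The promoters of 4 genes of this group are shown because the list is known for the CHR, here the letters TTTGAA, and for CCAAT, through which DREAM and NF-Y act. Both elements, on either strand, are in capitals in the 150 bases before the RefSeq start (GRCh38.p14) of *HMMR* (chr5:163460482-163460631), *CENPA* (chr2:26785906-26786055), *PLK1* (chr16:23678739-23678888) and *CCNB2* (chr15:59104996-59105145), all on the plus strand.
HMMR: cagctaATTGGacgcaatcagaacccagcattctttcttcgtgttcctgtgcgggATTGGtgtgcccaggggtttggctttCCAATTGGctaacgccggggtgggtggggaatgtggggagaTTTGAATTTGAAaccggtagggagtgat
CENPA: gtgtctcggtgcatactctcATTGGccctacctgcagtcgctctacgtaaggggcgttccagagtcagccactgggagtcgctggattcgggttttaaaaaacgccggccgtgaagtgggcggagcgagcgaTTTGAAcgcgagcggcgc
PLK1: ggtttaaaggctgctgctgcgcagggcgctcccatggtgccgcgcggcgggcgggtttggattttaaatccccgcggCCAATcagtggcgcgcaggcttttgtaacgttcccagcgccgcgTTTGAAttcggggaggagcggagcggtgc
CCNB2: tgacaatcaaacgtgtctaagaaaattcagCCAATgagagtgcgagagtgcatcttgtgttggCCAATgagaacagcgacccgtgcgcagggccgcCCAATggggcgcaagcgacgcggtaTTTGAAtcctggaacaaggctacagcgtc
From 250 bases before to 50 after the start and on both strands, TTTGAA was present in 23 of 35 promoters of this list (65.7%), against 8.94% of the promoters of tested genes and 15.4% of all 27195. Of the 22 members with a promoter that were called lower, 11 held it (50.0%). CCAAT was present in 28 of the 35 (80.0%), against 36.7% of tested genes and 35.7% of all. Among all genes that fell 16.5% held TTTGAA (86 of 520) and among those that rose 7.76% (45 of 580). The presence of these letters is a description and not evidence of binding.

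*HMMR*, the hyaluronan receptor that also binds spindle microtubules, fell from 36.4, 50.8 and 40.9 CPM to 9.42, 5.39 and 2.71 CPM, with a log2 fold change of −2.86 (SE 0.44, adjusted p = 0.00023). *CENPA*, the histone H3 variant of centromeres, fell from 23.7, 28.5 and 29.7 CPM to 6.32, 6.24 and 5.75 CPM, with a log2 fold change of −2.16 (SE 0.29, adjusted p = 5.5e-05). *AURKA*, the kinase of spindle poles, fell from 77.5, 106 and 72.8 CPM to 25.5, 24.9 and 22.4 CPM, with a log2 fold change of −1.81 (SE 0.22, adjusted p = 1.7e-05). In these 3 genes the groups did not overlap, and the treated libraries of *CENPA* and *AURKA* lay close together while those of *HMMR* varied more. The mitotic kinase *PLK1* (−2.12), the cyclins *CCNB2* (−2.02), *CCNB1* (−1.82) and *CCNA2* (−1.73), and *CDC20* (−1.498), the activator of the anaphase-promoting complex, fell as well, as did *BIRC5* (−1.58), the gene of survivin, and the phosphatases *CDC25B* (−1.11) and *CDC25C* (−1.41) that activate CDK1. The checkpoint kinase *BUB1* fell from 85.4, 128 and 65.1 CPM to 30.1, 22.5 and 8.87 CPM (−2.18, 1 of 6 and lost with reverse-strand counts). *BUB1B* (−2.20) and *ASPM* (−2.01) had fitted differences of the same size without passing, and *CDK1* stood at −0.68.

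The other phases of the cycle moved less. Among 43 genes of the replication machinery, 8 fell and 1 rose (median −0.74), 24 had every treated library below every untreated one (16.6% over all genes), and the replicate block called 25 lower. The count lower was 3 without untreated replicate 2, 4 without OXPT replicate 3 and 5 without OXPT replicate 1. *GINS1* (−1.18, 3 of 6) and *GINS2* (−1.02, 2 of 6) of the replicative helicase, the primase *PRIM1* (−1.15, 5 of 6), *RPA3* (−1.11, 5 of 6), *RFC5* (−1.09), *MCM7* (−0.93, 1 of 6) and *FEN1* (−0.67, 2 of 6) were among those that fell, and the clamp *PCNA*, which is also a p53 target, was the member that rose, from 252, 325 and 246 CPM to 620.1, 520.5 and 548 CPM. Of 22 G1 cyclins, RB and E2F genes (median −0.41), *CCND3* rose (0.93, 3 of 6) and *E2F2* fell (−1.09, 3 of 6). The letters TTCCCGC or TTGGCGC, E2F elements, searched on both strands of the same windows, were present in 22 of 36 replication promoters (61.1%), in 6 of 35 of the G2 and mitosis list (17.1%), in 15.1% of tested genes and in 9.36% of all promoters. With a further T before these letters, the form searched first, the shares were 44.4%, 2.86%, 3.78% and 2.32%, and the shorter form was added after these had been seen. Histone genes, whose main transcripts lack a polyA tail and are poorly captured here, were tested for 6 of 50, and *H2BC5* rose (2.19, 3 of 6).

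The kinases and mediators of the damage response were 4 lower and 0 higher of 20 (median −0.37). *H2AX*, the histone variant phosphorylated at breaks, fell from 276, 305 and 262 CPM to 71.2, 88.5 and 112 CPM, with a log2 fold change of −1.63 (SE 0.25, adjusted p = 0.00016), and the groups were far apart. *WEE1* (−1.29, 3 of 6) and *CHEK1* (−1.18, 2 of 6), the kinases that hold CDK1 in check, fell, as did the scaffold *MDC1* (−0.86). The list held 2 calls without OXPT replicate 2, without OXPT replicate 3 or without untreated replicate 2.

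In homologous recombination and the Fanconi anaemia pathway, 4 of 35 genes fell and 1 rose (median −0.54), and the replicate block called 9 lower. *RAD51B*, a recombination gene spread over 910 kb, fell from 3.44, 4.20 and 5.04 CPM to 0.608, 0.484 and 0.329 CPM, with a log2 fold change of −3.11 (SE 0.34, adjusted p = 6.1e-06). With reverse-strand counts it was not called, but at this low level it may not have been tested there. Other annotated genes overlap *RAD51B*. *EME1* (−0.84, 4 of 6) and *UBE2T* (−0.74, 0 of 6) fell together with *FANCC*, and *RAD51C* (0.68, 2 of 6) rose, *EME1* and *RAD51C* not with reverse-strand counts. Excision and mismatch repair held 1 gene of 23 that rose, *DDB2* (median 0.06, 3 genes with the block), and translesion synthesis 1 of 14 that rose, *POLH*, and 1 that fell, the fork-remodelling helicase *ZRANB3* (−1.74, 4 of 6), which was not called with reverse-strand counts.

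The share of genes that fell grew with gene length. The 174 protein-coding genes of 400 kb or more had a median log2 fold change of −1.24, and 89 of them fell (51.1%) while 3 rose (1.72%). Below 10 kb, 2.45% of 1998 genes fell and 9.06% rose, with a median of 0.29, and the classes in between followed in order, with 2.81% lower at 10–30 kb, 4.46% at 30–100 kb, 8.60% at 100–200 kb and 22.3% at 200–400 kb. Genes over 200 kb were 747 of the 11263 tested protein-coding genes (6.63%) but 217 of the 650 that fell (33.4%), and 640 of the 747 had a negative fitted value (85.7%). The genes that fell had a median length of 104 kb, those that rose 19.7 kb and those not called 33.3 kb. Across genes, which are not independent replicates, Spearman's rho between length and log2 fold change was −0.415, with −0.082, −0.412 and −0.517 in the 3 pairs, so the relation was weak in replicate 1 when all lengths were taken, although the genes of 400 kb or more had medians of −1.21, −1.18 and −1.70.

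Of the 12 protein-coding genes with the largest decreases and a mean of at least 20 counts in both groups, 9 were longer than 200 kb (31.7 to 814 kb, median 492 kb), whereas the 12 with the largest increases measured 0.875 to 93.1 kb (median 13.3 kb). *TRAPPC9*, a subunit of a vesicle-tethering complex (ENSG00000167632.18, chr8:139727725-140458579, minus strand), fell from 37.5, 33.7 and 40.6 CPM to 2.80, 2.97 and 3.45 CPM, with a log2 fold change of −3.60 (SE 0.25, adjusted p = 3.5e-08). *PRKCA*, the protein kinase C alpha gene, fell from 16.9, 21.5 and 18.2 CPM to 1.398, 3.81 and 1.31 CPM, with a log2 fold change of −3.10 (SE 0.51, adjusted p = 0.0004). *EXOC4*, a subunit of the exocyst, fell from 29.8, 25.9 and 27.9 CPM to 3.89, 4.84 and 3.53 CPM, with a log2 fold change of −2.76 (SE 0.29, adjusted p = 5.1e-06). In each gene the highest treated library was several times lower than the lowest untreated one. *BCAS3* (−3.42), the receptor phosphatase *PTPRG* (−3.08), the kinases *RPS6KA2* (−3.08) and *CAMK1D* (−2.71), and the G protein subunit *GNG7* (−3.09) also fell, and all 12 calls held in all 6 fits. *HDAC4* itself spans 353 kb. Most of these genes overlap antisense or intronic transcripts whose reads cannot be separated here.

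**Figure D3:**
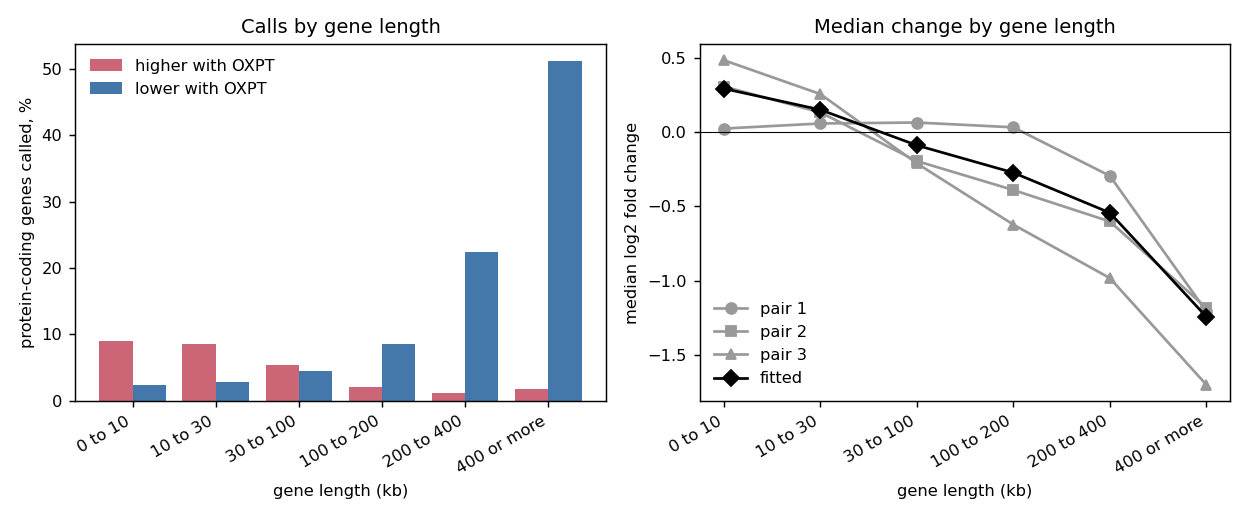
Share of protein-coding genes called higher or lower by class of gene length (left, percent of genes tested in the class) and median log2 fold change per class for each pair and for the fit (right). The share lower climbs from 2.45% below 10 kb to 51.1% at 400 kb or more, and the fitted median goes from 0.29 to −1.24.

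Genes for the basal machinery of the cell moved little. Of 79 cytosolic ribosomal proteins, 71 had positive fitted values (median 0.29), but the pairs gave −0.16, 0.23 and 0.62 and 0 rose, while *RPL3* fell from 3659.7, 3235 and 3673 CPM to 1143, 1465 and 2157 CPM (−1.15, 5 of 6). Of 54 genes for RNA polymerase I and ribosome biogenesis, *RRP12* (1.19, 1 of 6), *LYAR* (0.92, 2 of 6), *BYSL* (0.82, 2 of 6) and *POLR1C* (0.72, 1 of 6) rose (7.41%, against 6.44% over all genes, median 0.30), yet 0 of the 4 kept the call without OXPT replicate 2, OXPT replicate 3, untreated replicate 1 or untreated replicate 3, and 3 of them were lost with reverse-strand counts, *POLR1C* also with the block. Nuclear-encoded subunits of oxidative phosphorylation had a median of 0.28 (−0.07, 0.32 and 0.55 in the pairs), with 1 of 74 higher, *NDUFV3* (0.74, 1 of 6), and 4 with the block. By edgeR, 0 of 15 genes of the mitochondrial genome, 0 of 22 glycolytic genes and 0 of 14 heat shock chaperones were called, while 1, 1 and 0 genes had an unadjusted p under 0.05, and DESeq2 called 0. Among 30 proteasome subunits, *PSMC4* rose (0.76, 2 of 6), and among 30 splicing and transcription factors, *SRSF2* fell (−0.62, 2 of 6). Each was 3.33% of its list, against 12% called over all genes.

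Immediate early and AP-1 genes rose in 6 of 18 cases (median 0.93), and the block called 10. *ATF3*, a stress-induced repressor of the AP-1 family, rose from 21.3, 22.5 and 22.4 CPM to 124, 144 and 115 CPM, with a log2 fold change of 2.53 (SE 0.63, adjusted p = 0.011), which was lost without untreated replicate 1. *CCN1* and *CCN2*, matricellular proteins, are classical targets of YAP and of SRF. *CCN1* rose from 23.1, 29.4 and 20.8 CPM to 129, 259 and 136 CPM (2.84) and *CCN2* from 2.98, 4.43 and 2.89 CPM to 39.1, 33.1 and 36.3 CPM (3.39). In these 3 genes every treated library was above every untreated one. *JUN*, whose protein is a substrate of FBXW7, rose from 25.1, 22.1 and 32.7 CPM to 51.4, 123 and 126 CPM (1.91, 1 of 6), with *IER5* (1.07) and *SRF* (0.69, 2 of 6 and lost with reverse-strand counts), while *FOS* (−0.18) and *MYC* (0.37) did not pass. The list held 3 calls without untreated replicate 1.

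Feedback inhibitors of ERK signalling gave 4 higher and 1 lower of 17 (29.4% called, against 12% over all genes, median 0.16). *SPRY4* fell from 60.5, 70.3 and 83.9 CPM to 39.1, 25.5 and 30.7 CPM (−1.17) and kept its call in all 6 fits, whereas the phosphatases *DUSP5* (1.35, 0 of 6), *DUSP4* (1.01, 2 of 6), *DUSP2* (0.80, 1 of 6) and *DUSP7* (0.62, 1 of 6) rose. With reverse-strand counts *DUSP5* and *DUSP7* were not called, and *DUSP7* was not called with the block either. Among the EGFR family and its ligands, *EREG* fell from 549, 589 and 538 CPM to 304, 151 and 145 CPM (−1.48), *BTC* also fell (−1.97) and *HBEGF* rose (1.60, 1 of 6). The ligand *AREG* stood at 337, 242 and 387 CPM untreated and at 554, 544 and 722 CPM with OXPT, and although each treated library was above each untreated one, the difference did not pass (0.91, adjusted p = 0.43).

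Of 21 NRF2 targets 3 rose (14.3%, against 6.44% over all genes, median 0.30), led by *AKR1B10*, an aldo-keto reductase, which rose from 1.34, 0.728 and 0.37 CPM to 20.8, 9.38 and 12.8 CPM, with a log2 fold change of 4.09 (SE 0.47, adjusted p = 1.2e-05). The other 2 were *HMOX1* (1.52, 2 of 6) and *OSGIN1* (1.87, 1 of 6). Of 23 ATF4 targets 1 rose, *ATF3*, which is on the AP-1 list too (median 0.28), and the block gave 8 higher and 2 lower. Of 22 interferon-stimulated genes tested, *ISG15*, a ubiquitin-like modifier, rose from 93.6, 88.6 and 112 CPM to 247, 405 and 569.8 CPM, with a log2 fold change of 2.06 (SE 0.50, adjusted p = 0.0092). *IFI6* (1.35, 2 of 6) and *USP18* (0.74, 0 of 6) also rose, *USP18* not with the block (median of the list 0.38). The 3 genes were 13.6% of the list, against 6.44% higher over all genes. NF-kB targets had 17 positive values of 19 and a median of 0.91, with 3 higher, against 6.44% over all genes, and 8 with the block. The adhesion molecule *ICAM1* rose from 3.44, 2.97 and 4.37 CPM to 8.69, 10.7 and 14.8 CPM (1.66, lost without untreated replicate 2), with the cytokine *LIF* (1.01, 2 of 6) and the inhibitor *NFKBIE* (1.03, 1 of 6).

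Genes of cholesterol and fatty acid synthesis were lower in 25 of 27 fitted values (median −0.89), and in 17 every treated library lay below every untreated one (16.6% over all genes). Only 3 passed, and 0 did without OXPT replicate 1 or 2 or without untreated replicate 2 or 3, whereas the block called 17. *SCD*, the desaturase that makes oleate, fell from 1210.2, 2189 and 3106 CPM to 361, 590.5 and 785 CPM (−1.90, 2 of 6), and *LSS* (−1.26, 2 of 6) and *SREBF1* (−0.71, 1 of 6), the gene of the transcription factor of the pathway, were the others. In each group, *SCD* was lowest in replicate 1.

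Epithelial and matrix genes shifted in both directions. Of 33 actin and matrix genes 8 rose and 2 fell (median 0.45), with 2 higher calls without untreated replicate 2, 3 without OXPT replicate 2 or 3, 4 without untreated replicate 1 and 5 without untreated replicate 3. *LAMA3*, a chain of laminin-332, rose from 5.04, 4.54 and 5.85 CPM to 49.1, 31.8 and 18.1 CPM (2.68), beside *LAMB3* (2.29, 1 of 6), *TAGLN* (1.86, 4 of 6), *MYL9* (1.38, 4 of 6) and *FLNA* (0.98). *COL18A1*, whose C-terminal fragment is endostatin, fell from 121, 92.9 and 122 CPM to 19.4, 16.3 and 33.4 CPM, with a log2 fold change of −2.28 (SE 0.26, adjusted p = 1.1e-05), and *SLC19A1* overlaps it. The keratins of simple epithelia rose, *KRT18* from 757, 851 and 939 CPM to 1678, 2589.5 and 3656 CPM (1.64) and *KRT8* from 2578, 2817 and 3286 CPM to 4221, 6727 and 10288 CPM (1.29), the only 2 of 16 epithelial genes to pass. The annotation of these neighbours overlaps, and the call of each was lost without OXPT replicate 3 or untreated replicate 1. Of 15 Wnt targets, the Wnt antagonist *DKK1* rose from 167, 183 and 156 CPM to 621, 493 and 577 CPM (1.74), and *EPHB2* (−1.41, 4 of 6) and *ZNRF3* (−0.71, 1 of 6) fell. These calls were 20% of the list, against 12% over all genes.

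**Figure D4:**
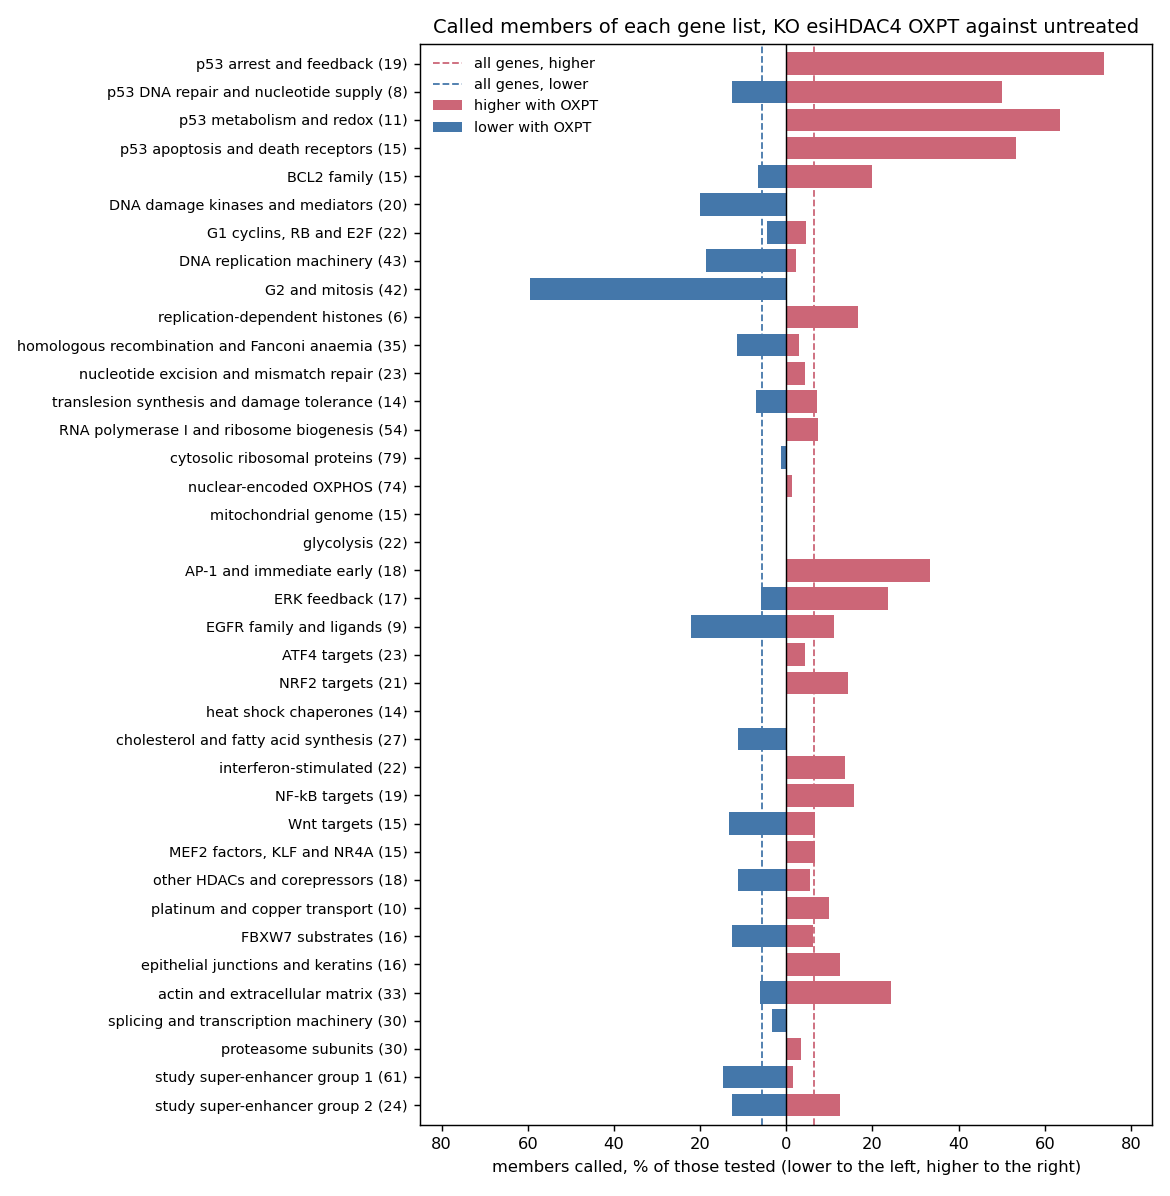
Percent of the tested members of each gene list called higher or lower with OXPT in esiHDAC4 cells (number tested in brackets), with dashed lines at 6.44% higher and 5.54% lower for all genes. The 4 p53 lists reach furthest to the higher side and the G2 and mitosis list, with 25 of 42, furthest to the lower side.

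Of 18 further HDACs and corepressors, 3 were called (16.7%, against 12% over all genes). *HDAC11* rose (0.83, 2 of 6) and *TBL1X* (−0.85) and *MTA1* (−0.78, 4 of 6) fell (median −0.15). Of 15 MEF2, KLF and NR4A genes, the class to which HDAC4 partners belong, *NR4A1* rose (1.29, 2 of 6), and *NR4A2* stood at 0.12. The 1 call was 6.67% of that list, against 12% over all genes. Of 16 genes whose proteins FBXW7 targets, *JUN* rose and *AURKA* and *SREBF1* fell (median −0.17), all 3 given above. Of 10 tested genes of platinum and copper transport, the copper chaperone *ATOX1* rose (1.37, 3 of 6), so 10% were called, near the 12% of all genes.

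Genes linked by the study to super-enhancers were also followed. These were domains where, in the same cells under OXPT, silencing of HDAC4 lowered (first set) or raised (second set) H3K27 acetylation, so the sets are not independent of this system. Of 61 tested genes of the first set, 9 fell and 1 rose with OXPT in silenced cells (median −0.46), against 5.54% lower and 6.44% higher over all genes, and the block gave 20 lower and 3 higher. The 9 were *RAD51B*, *BTC*, the kinesin *KIF18A* (−1.93, 1 of 6), the phosphodiesterase *PDE4B* (−1.495, 1 of 6), *NECTIN3* (−1.49, 4 of 6), *SH3PXD2A* (−1.31), the insulin receptor substrate *IRS1* (−1.25), *HMGA2* (−0.95, 0 of 6) and *ABHD10* (−0.83, 1 of 6), the member that rose was *PTRH2* (0.63, 1 of 6), and the set held 5 or 6 lower calls when any 1 of the libraries other than OXPT replicate 1 was left out. *KIF18A* and *PTRH2* were not called with reverse-strand counts. Of the same 61 genes, OXPT lowered 5 and raised 2 in esiCT (median −0.33). With #11 it lowered 13 and raised 0 (median −0.58), and in WT it also lowered 13 and raised 0 (median −0.55). Of the 24 tested genes of the second set, 3 rose and 3 fell (25% called, against 12% over all genes, median −0.26), with *KRT80*, *IRS2* (1.30, 1 of 6) and *PRAG1* (0.95, 2 of 6) higher and *SH3PXD2A*, which is in both sets, *MTAP* (−0.96, 3 of 6) and *PTMA* (−0.84) lower, and the block gave 3 higher and 9 lower.

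The response was set against those of KO esiCT, KO #11 and WT cells, which had libraries of their own. OXPT changed 1398 genes in esiCT (11.3%; 6.23% higher and 5.08% lower), 1175 with #11 (9.51%; 5.94% higher and 3.57% lower) and 1322 in WT (10.7%; 5.1% higher and 5.6% lower). Of the 796 genes that rose in esiHDAC4, 576 also rose in esiCT (72.4% of one list and 74.8% of the other), 408 with #11 (51.3% and 55.6%) and 455 in WT (57.2% and 72.2%). Of the 684 that fell, 498 fell in esiCT (72.8% and 79.3%), 244 with #11 (35.7% and 55.3%) and 486 in WT (71.1% and 70.2%). All 1480 had the same sign in esiCT. Called in the same direction in all 4 were 494 genes (296 higher and 198 lower), and 211 were called in esiHDAC4 alone, which does not show that they differed.

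The difference between responses was tested as an interaction. Against esiCT 0 genes passed, with 19 at an unadjusted p under 0.05 and 0 by DESeq2, against #11 0 passed, with 687 at an unadjusted p under 0.05 and 31 by DESeq2, and against WT 0 passed, with 127 at an unadjusted p under 0.05 and 0 by DESeq2. Against #11 the call depended on the fit, since 91 genes passed with the replicate block on the groups compared (77 with a higher response in esiHDAC4), 97 on those groups without the block and 74 with the KO libraries alone, but 2 with the block over 24 libraries. These tests do not show that the responses were equal. If no gene differed, a calibrated test would give a share of about 0.05 of the genes an unadjusted p under 0.05. The 19 genes against esiCT and the 127 against WT were far fewer, so these tests may be conservative. The reason was not tested. The 95% interval of the difference had a median half-width of 0.88 on the log2 scale, and it lay within 2-fold in either direction for 5316 genes against esiCT (43.0%), 3960 against #11 (32.0%) and 4780 against WT (38.7%).

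For *CDKN1A* the responses of esiHDAC4, esiCT, #11 and WT were 3.10, 3.18, 2.55 and 2.55, and for *TRAPPC9* −3.60, −3.59, −2.72 and −2.95. Among protein-coding genes of 400 kb or more, 51.1% fell in esiHDAC4, 47.7% in esiCT, 42.0% with #11 and 49.4% in WT. The G2 and mitosis list had 25 lower genes in esiHDAC4 and 20 in esiCT (median −1.39). It had 8 with #11 (median −0.85) and 24 in WT (median −1.43). These falls start from each group's own untreated level. Untreated mean CPM with #11 and in esiHDAC4 was 23.2 and 92.9 for *BUB1* and 48.5 and 85.4 for *AURKA*. It was 25.5 and 42.7 for *HMMR* and 24.8 and 27.3 for *CENPA*. With OXPT the means were 12.05 and 20.5, 28.1 and 24.3, 8.81 and 5.84, and 10.1 and 6.10 CPM in the same order. How far the untreated levels account for the smaller fall with #11 was not tested. The ATF4 targets had medians of 0.28 in esiHDAC4, −0.21 in esiCT, −1.41 with #11 (9 of 23 lower) and −0.99 in WT (5 lower). Of these 23 genes, 14 had an unadjusted p under 0.05 for the difference from #11 and 0 passed after adjustment. The WT response depended on single libraries. In the untreated WT libraries *ATF3* stood at 20.1, 29.2 and 230 CPM and *CDKN1A* at 381, 288 and 1221 CPM. By edgeR, 127 genes had an unadjusted p under 0.05 for the difference from WT. The number was 341, 690 and 32 without untreated WT replicate 1, 2 or 3. The AP-1 list had 6 higher in esiHDAC4, 5 in esiCT and 3 in WT, but 1 higher and 3 lower with #11 (median −0.47). The genes with the smallest p against #11 were *CCN2* (difference 3.23, 95% interval 1.91 to 4.55, adjusted p = 0.29), *CAPN15* (−1.64) and *JUN* (3.85, 95% interval 2.18 to 5.52). In #11 cells *JUN* stood at 259, 268 and 238 CPM untreated and 45.1, 43.1 and 111 CPM with OXPT, opposite in direction to the esiHDAC4 libraries. Against esiCT the smallest p belonged to *RPL7P44* (1.13, 95% interval 0.40 to 1.86), *TNRC6C* (−1.004) and an unnamed gene, and against WT to *GRHL3* (2.01, 95% interval 0.86 to 3.16), *HKDC1* (3.99) and *MIR1915HG* (−1.10), none of them past the adjusted threshold.

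**Figure D5:**
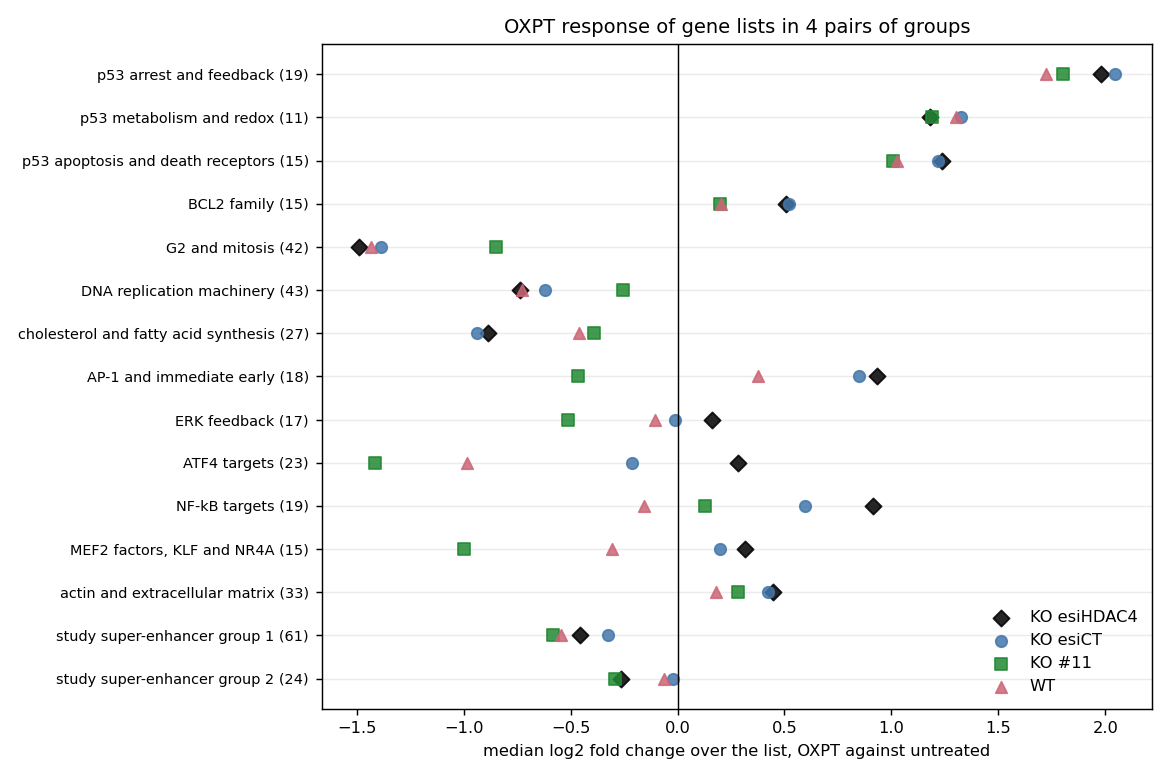
Median log2 fold change with OXPT of 15 gene lists in esiHDAC4, esiCT, #11 and WT cells. The p53 and the G2 and mitosis lists keep their sign in all 4 responses, whereas the ATF4 targets go from 0.28 in esiHDAC4 to −1.41 with #11.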

How the data were processed

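PolyA RNA was sequenced, and the authors deposited raw read counts per gene for each of the 36 libraries, as whole numbers without normalization for 62757 Ensembl identifiers, with an unstranded and 2 stranded columns in the layout of STAR. The submitters' processing notes name Trimmomatic 0.39, STAR 2.7.11a and hg38. The study's methods describe another route (salmon and DESeq2), so these counts may not be the values tested there. The forward and reverse columns held nearly equal totals in all 24 libraries used (ratio 1.00 to 1.02), although the labels name a stranded kit, so the unstranded column was used and reads of overlapping genes were not separated. In the 6 esiHDAC4 libraries, 8.02% to 13.4% of reads were unmapped, 3.37% to 3.83% mapped to several places, 3.28% to 5.34% fell in no gene and 10.6% to 12.0% were ambiguous, and these stayed out of all library sizes.

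Samples were grouped by the labels. A further 12 WT libraries, whose label entries contradict each other, were not analysed. Symbols and positions came from GENCODE 44 (GRCh38), which matched 62130 identifiers with their version and 62639 without it, and promoters from RefSeq, found for 9474 tested genes. The members of this comparison and the gene lists, written from general knowledge or, for the super-enhancer sets, taken from the study, were chosen with earlier results of these data known.

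Tests were run with edgeR 4.0.16 in R 4.3.3 (TMM, quasi-likelihood F test, 1 coefficient per group, 24 libraries in 8 groups sharing 1 estimate of the spread). The 12356 genes with a mean count of 64 or more in any group were tested. A gene was called when its p, adjusted over all of them by Benjamini-Hochberg, was under 0.05 and it changed by over 1.5-fold. Standard errors are approximate (log2 fold change divided by the root of F), and levels are CPM with TMM library sizes. Genes were named where they were called, protein-coding and among the 12 largest changes in a direction without overlap of the groups and with at least 20 mean counts in both, where they were targets of the study, or where they were members of a list. DESeq2 1.42.0, the replicate block, reverse-strand counts, other filters and libraries left out were alternatives, and the fits were tested on simulated data. Libraries of the same number deviated from their group means together (correlations across genes 0.202 to 0.677), and so equal numbers were read as pairs. Between different numbers the correlations were −0.586 to 0.353. For replicate 1 the pairing was weak, since OXPT replicate 1 correlated more with untreated replicate 2 (0.353) than with untreated replicate 1 (0.202). The main test, with its standard errors and p-values, leaves this pairing out. Of the fits, only those with the replicate block use it. Within a group no 2 libraries agreed within sampling noise (chi-square per degree of freedom 17.8 to 127 over 6 pairs). Intervals cover counting error or the spread between libraries only. A few genes tested here are not reported.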

Additional observations from a re-analysis of the deposited data

Results flagged for a closer look

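Among the 182 genes checked (those named by rule and the called members of the lists), 12 moved one way with OXPT in every pair of the esiHDAC4 libraries and the opposite way in every pair of the KO libraries with #11. Of these, 9 were higher in esiHDAC4 and lower with #11. For *KRT80* the difference between the 2 responses was 3.75 on the log2 scale (3.36 in esiHDAC4 and −0.39 with #11, adjusted p = 0.47 in the edgeR test of the interaction), with 13.8, 11.9 and 13.1 CPM untreated and 9.18, 10.0 and 10.4 CPM with OXPT in the #11 libraries. For *JUN* it was 3.85 (1.91 and −1.94) and for *ATF3* 3.68 (2.53 and −1.15), each with an adjusted p of 0.29, and the #11 libraries held 188, 190.2 and 137 CPM of *ATF3* untreated and 60.9, 60.9 and 111 CPM with OXPT. The others were *KRTAP2-3* (3.69, adjusted p = 0.55), *HKDC1* (3.62, adjusted p = 0.55), *DUSP5* (1.96, adjusted p = 0.54), the EGFR ligand *AREG* (1.79, adjusted p = 0.96), *PRAG1* (1.28, adjusted p = 0.43) and *ZYX* (0.92, adjusted p = 0.73). The reverse, lower in esiHDAC4 and higher with #11, was seen in *EME1* (−1.24, adjusted p = 0.32), *FEN1* (−1.06, adjusted p = 0.29) and *INCENP* (−1.31, adjusted p = 0.55). None of the 12 differences passed this test over all genes. The share of all tested genes that moved in this way was not counted. These directions start from each group's own untreated level. Untreated mean CPM with #11 and in esiHDAC4 was 1111 and 322 for *AREG*, 172 and 22.1 for *ATF3*, 219 and 99.4 for *DUSP5*, and 15.9 and 22.4 for *EME1*. With OXPT the means of *AREG* were 605 and 607 CPM. How far the untreated levels account for the opposite directions was not tested. The groups of 3 libraries are too small for a test of single outlying libraries.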

How the results depend on the processing

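The count of 1480 genes changed by OXPT stayed within 1.5 times under DESeq2, RLE scaling, reverse-strand counts, the KO libraries alone, the 6 libraries alone, no filter and the replicate block over 24 libraries (1243 to 2061). It was 2243 with the replicate block on the 6 libraries, 943 with 64 counts required in every group and 477 when the fold change over 1.5 was itself tested. Leaving out 1 library gave 807 to 1912 calls, the highest without WT untreated replicate 3. Leaving out a replicate number in every group gave 159 (number 1), 216 (number 2) and 2250 (number 3). The share higher, 53.8%, was 49.2% with reverse-strand counts, 50.9% with the 6 libraries alone, 47.2% with the block on them, 48.4% without a filter and 50.6% with the filter in every group. It ranged from 46.0% (without untreated replicate 1) to 58.8% (without OXPT replicate 1) with 1 library left out, and was 60.4% without number 1 and 50.0% without number 3. Against #11, where edgeR called 0 genes, other settings called 97 (libraries of the groups compared), 74 (KO only), 91 (block, groups compared), 2 (block, 24 libraries), 31 (DESeq2), 81 (no filter), 66 (without WT untreated replicate 3) and 307 (without number 3). Against WT, 40 were called without a filter, and against esiCT 0 in every setting. Of 28 called genes named first (targets of the study and largest changes), 11 lost the call in at least 1 of 37 settings, and 4 of the other 9 gained one. *NR4A2* (0.12, not called) changed sign to −0.0069 with reverse-strand counts, −0.13 without untreated replicate 2 and −0.10 without number 2, and was 0.33 without number 3. Beside the values printed with the results, 130 of the 1480 genes were not called with the replicate block on the 6 libraries. That fit tested 11940 genes against 12356 in the main fit, and the 130 include genes that it did not test, such as *EDA2R*. The causes were not tested.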
